A study of Homo sapiens with 2 samples.

Results

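The receptors described here are 8 genes of class I cytokine receptor chains, IL13RA1, IL13RA2, IL4R, IL6ST, OSMR, LIFR, IL6R and IL7R, taken by symbol from the 36601 genes of the matrix. They were chosen by measured values: their levels in the groups of cells of this series and their unevenness between cells were known beforehand, above all those of IL13RA2 in the group of barcode suffix 6. The levels and the spread given below are therefore a description and carry no test. All 8 reached a level of 10 CPM, the unit defined below, in at least 1 group.

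RNA of single cells was measured in 6 breast cancer lines of human origin, for which the labels give no treatment, with a droplet kit that reads the 3′ ends of transcripts and marks every line with a multiplexing oligo. Each line was 1 culture, and lines were loaded as 2 pools of 3, MDA-MB-231 with MDA-MB-453 and BT-474, and MDA-MB-436 with Hs578T and HCC38. BT-474 is an ERBB2-amplified luminal line that expresses oestrogen receptor, MDA-MB-453 is a luminal line that expresses androgen receptor, and the other 4 (MDA-MB-231 and all lines of the second pool) are triple-negative. No line had a second culture, so cells are not replicates of a line, no p-value is given, and the 95% intervals below (exact Poisson for levels, exact conditional binomial for ratios, Clopper-Pearson for shares) cover counting error only. The luminal lines also share a pool that holds only 1 of the triple-negative lines, MDA-MB-231, so that line type and pool are partly confounded.

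Of 17605 barcodes, 15547 had at most 20% mitochondrial UMIs and were kept, between 1989 and 3451 per suffix, with 70.0 to 96.6 M UMIs per group and medians of 20306 to 38069 UMIs per cell. The labels do not say which suffix is which line, so each suffix group was named "like" a line of its pool from markers. The BT-474-like group (suffix 1) was highest for 6 of 6 markers, the MDA-MB-231-like (suffix 2) and MDA-MB-453-like (suffix 3) groups for 4 of 4 each, and the Hs578T-like group (suffix 5) for 6 of 6. The HCC38-like group (suffix 4) was highest for 4 of 5, KRT14 being highest in the Hs578T-like group. The name of the MDA-MB-436-like group (suffix 6) rests on 3 of 3 markers, of which UCHL1 stood close in 2 groups (531 CPM against 441 CPM in the HCC38-like group), and on low RB1, 5.03 CPM against 33.1 to 81.2 CPM elsewhere. A total of 22 barcode sequences occurred in more than 1 suffix, 0 of them within a capture. Of 12 immune markers only CD68 reached 10 CPM in a group (64.96 CPM in the MDA-MB-436-like group), with summed levels of the list from 1.41 to 67.9 CPM, and none of 5 endothelial markers reached it.

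Class I cytokine receptors have no kinase of their own and signal through JAK kinases bound to their cytoplasmic tails, which phosphorylate STAT transcription factors. Outside blood cells, IL-4 and IL-13 signal mainly through STAT6 by a pair of IL4R and IL13RA1. IL13RA2 binds IL-13 with high affinity, has a short tail and is best known as a decoy and as a tumour antigen. IL6ST (gp130) is the shared signalling chain of the IL-6 family. It pairs with OSMR for oncostatin M and with LIFR for LIF, is engaged by IL-6 bound to IL6R, and acts mainly through STAT3. IL7R pairs with the common gamma chain IL2RG for IL-7 in lymphocytes and with CRLF2 for TSLP.

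The genes lie on 4 chromosomes of GRCh38 (GENCODE 29 gene bounds). IL13RA1 (chrX:118727572-118794539, plus strand) and IL13RA2 (chrX:115003975-115019977, minus strand) are on the X chromosome. IL7R (chr5:35852695-35879603, plus), LIFR (chr5:38474963-38608354, minus), OSMR (chr5:38845858-38945596, plus) and IL6ST (chr5:55935095-55994993, minus) are on chromosome 5. IL6R is at chr1:154405193-154469450 and IL4R at chr16:27313668-27364778, both on the plus strand.

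The promoters of IL7R, the receptor whose level differed between cells and between most groups, and of IL13RA1, the receptor with the most even level, are shown because their base composition is far apart. These are the 250 bases before the RefSeq transcript start (GRCh38.p14), both on the plus strand, at chr5:35856641-35856890 for IL7R and chrX:118727356-118727605 for IL13RA1, written 5′ to 3′ with a TATA box motif (TATAAA) in capitals.
IL7R: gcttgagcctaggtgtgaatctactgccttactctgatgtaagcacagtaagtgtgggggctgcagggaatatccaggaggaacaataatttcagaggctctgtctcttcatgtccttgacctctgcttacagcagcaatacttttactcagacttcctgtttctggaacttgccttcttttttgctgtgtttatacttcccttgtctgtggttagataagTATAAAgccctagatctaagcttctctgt
IL13RA1: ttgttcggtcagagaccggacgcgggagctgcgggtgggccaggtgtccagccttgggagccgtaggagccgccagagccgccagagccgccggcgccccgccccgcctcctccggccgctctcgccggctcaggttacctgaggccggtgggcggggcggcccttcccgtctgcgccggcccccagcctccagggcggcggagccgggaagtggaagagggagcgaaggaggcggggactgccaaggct
The IL7R window, counted with the 50 bases after the start, has 0 CpG dinucleotides, as few as in 3.96% of the 35116 RefSeq promoter windows of that length, and its TATAAA lies 29 bases before the start. It held none of the other 4 motifs named below. TATAAA on the coding strand occurs in 7.33% of all windows. The IL13RA1 window has 35 CpG dinucleotides beside a median of 14 over all windows, and held none of the 5 motifs searched, which were the TATA box and, on both strands, AP-1 (TGANTCA), STAT (TTCNNNGAA), NF-kB (GGGANTTCC) and the interferon-stimulated element (GAAANNGAA). IL4R, IL6ST, OSMR and IL6R had 42, 36, 23 and 27 CpG dinucleotides, and the 3 LIFR start sites had 2, 9 and 51. In the OSMR window GGGANTTCC was found 125 bases before the start and TGANTCA 3 bases after it, motifs that 1.85% and 7.71% of all windows hold. TGANTCA was also found 37 bases after the start of IL6R. A STAT motif (in 7.66% of all windows) was found in 2 of the 3 LIFR windows, 165 and 182 bases before the start, the latter with TATAAA 200 bases before it, and the IL4R and IL6ST windows held none of the motifs. Sequences of 7 of the 8 receptors were matched by symbol, the exception being IL13RA2. A motif match is a description of the sequence, not a bound site.

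IL13RA2 was the receptor with the most uneven level between groups. Levels are given as CPM, the UMIs of a gene scaled to 1000000 UMIs summed over the cells of a group, and they are compared between groups for the same gene, not between genes, since 3′ UMIs do not give a level per transcript length. IL13RA2 was at 80.7 CPM (78.7 to 82.7, from 6388 UMIs) in the MDA-MB-436-like group, 2.20 CPM in the Hs578T-like group and 1.72 CPM in the HCC38-like group. In the other pool it had 1 UMI in the BT-474-like group and 0 in the MDA-MB-231-like and MDA-MB-453-like groups, which allows levels of up to 0.0352 and 0.0391 CPM. The MDA-MB-436-like group thus stood 36.7-fold (31.7 to 42.7) above the next group. After removal of doublets and mixed cells it was at 82.0 CPM against 0.866 and 0.803 CPM in the HCC38-like and Hs578T-like groups. Mixed cells were found by genes at 50 CPM or more that differed most from the other groups of the pool. IL13RA2 may be one of these genes, so the lower levels after filtering may be partly fixed by the filter. In the other groups of its pool IL13RA2 was at 2.13% (HCC38-like) and 2.73% (Hs578T-like) of its highest level. The 9 genes selected for a level in the MDA-MB-436-like group far above the next (the melanoma antigen gene MAGEA4, TM4SF19, the cytokine gene IL1A, C1QTNF4, the collagenase gene MMP1, RENBP, EMX2, IGFN1 and HES7) were in the HCC38-like group at 1.55% to 2.71% and in the Hs578T-like group at 1.85% to 5.10% of their own level, shares that the selection keeps small. After removal of doublets and of cells with transcripts of another line these shares of IL13RA2 were 1.06% and 0.979%, under the filter limit above. Whether these low levels come from those cells or from transcripts of the MDA-MB-436-like cells was not tested. MMP1, often named for MDA-MB-231, had a level of 38.2 CPM in the MDA-MB-436-like group and 0.0352 CPM among MDA-MB-231-like cells.

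The signalling chains that bind IL-13 and IL-4 were found in every group. IL13RA1 was the most even of the 8, at 39.9 CPM in the HCC38-like group, 31.7 CPM in the Hs578T-like, 28.6 CPM in the MDA-MB-436-like and 24.3 CPM in the MDA-MB-231-like group. The luminal-like groups were lowest, the MDA-MB-453-like at 16.1 CPM and the BT-474-like at 13.6 CPM. Its highest level was 2.94-fold (2.74 to 3.16) the lowest. IL4R was at 20.2 CPM in the MDA-MB-436-like, 15.5 CPM in the Hs578T-like, 6.30 CPM in the HCC38-like, 5.87 CPM in the MDA-MB-231-like group, while the BT-474-like cells had 3.08 CPM and the MDA-MB-453-like cells 1.13 CPM. The span of IL4R was 17.8-fold (14.4 to 22.4), and its levels in the HCC38-like and MDA-MB-231-like groups were not apart beyond counting error. Markers of the MDA-MB-231-like group gave low levels in the luminal-like groups of its pool, CD74 with 1.37 and 1.99 CPM beside 73.2 CPM and ESAM with 1.76 and 1.21 CPM beside 21.5 CPM, and the fall of IL4R from 5.87 CPM was smaller than theirs. The MDA-MB-436-like group therefore held the highest level of IL4R and of the decoy chain together with a middle level of IL13RA1.

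The gp130 chain was low in the luminal-like groups. IL6ST was at 259 CPM in the Hs578T-like, 146 CPM in the MDA-MB-436-like, 141 CPM in the MDA-MB-231-like, and 92.4 CPM in the HCC38-like group, while the BT-474-like cells had 14.9 CPM and the MDA-MB-453-like cells 4.83 CPM, a span of 53.6-fold (48.4 to 59.6). The levels of the MDA-MB-436-like and MDA-MB-231-like groups were within 1.03-fold (1.01 to 1.06) of each other. OSMR, its partner for oncostatin M, followed the same order over the first 4 groups, with 37.6, 23.6, 21.8 and 15.0 CPM, and the MDA-MB-453-like and BT-474-like cells had 2.98 and 1.36 CPM. Its span was 27.7-fold (22.6 to 34.3). Relative to the MDA-MB-231-like group, the lowest levels of IL6ST and OSMR lay above those of the markers CD74, IL11 and SPANXB1 in the same group. They lay below those of ESAM. The part of free transcripts in them was not tested.

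LIFR and IL6R, the chains for LIF and IL-6, had orders of their own. LIFR was at 22.3 CPM in the Hs578T-like and 21.3 CPM in the MDA-MB-231-like group, which could not be told apart by counting error, at 12.4 CPM in the MDA-MB-436-like, and at 3.37, 2.85 and 0.951 CPM in the BT-474-like, HCC38-like and MDA-MB-453-like groups. The HCC38-like group thus had a LIFR level near that of the BT-474-like group (ratio of the BT-474-like to the HCC38-like group 1.18, 0.991 to 1.42). IL6R was at 18.2 CPM in the MDA-MB-436-like group, 5.31-fold (4.707 to 5.998) above the 3.44 CPM of the HCC38-like group. The luminal-like groups were at 3.16 CPM (MDA-MB-453-like) and 2.16 CPM (BT-474-like), and the Hs578T-like and MDA-MB-231-like groups, high for IL6ST, were lowest for IL6R, at 0.709 and 0.234 CPM. IL6R was the only one of the 8 with a level in both luminal-like groups above that of 2 triple-negative groups.

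IL7R separated the luminal-like groups from the others most widely. It was at 63.4 CPM in the HCC38-like, 33.6 CPM in the Hs578T-like, 24.2 CPM in the MDA-MB-436-like and 7.18 CPM in the MDA-MB-231-like group. The MDA-MB-453-like cells had 0.104 CPM and the BT-474-like cells 0.0714 CPM. The HCC38-like level was 888-fold (380 to 2740) that of the BT-474-like group, an interval that is wide because the latter rests on few UMIs.

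Over all genes, 6.16% of the 10901 that reached 10 CPM in a group had a highest group at least 4-fold above the next on log2(CPM + 1), and of the 8 receptors IL13RA2 and IL6R did. Both luminal-like groups lay below all other 4 for 19.8% of these genes, and for 5 of the receptors: IL13RA1, IL4R, IL6ST, OSMR and IL7R. They lay above all other 4 for 11.2% of the genes and for 0 receptors. With 8 chosen genes these counts describe the receptors and do not set them apart. The plot of receptor levels by group shows all 48 values.

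**Figure D1:**
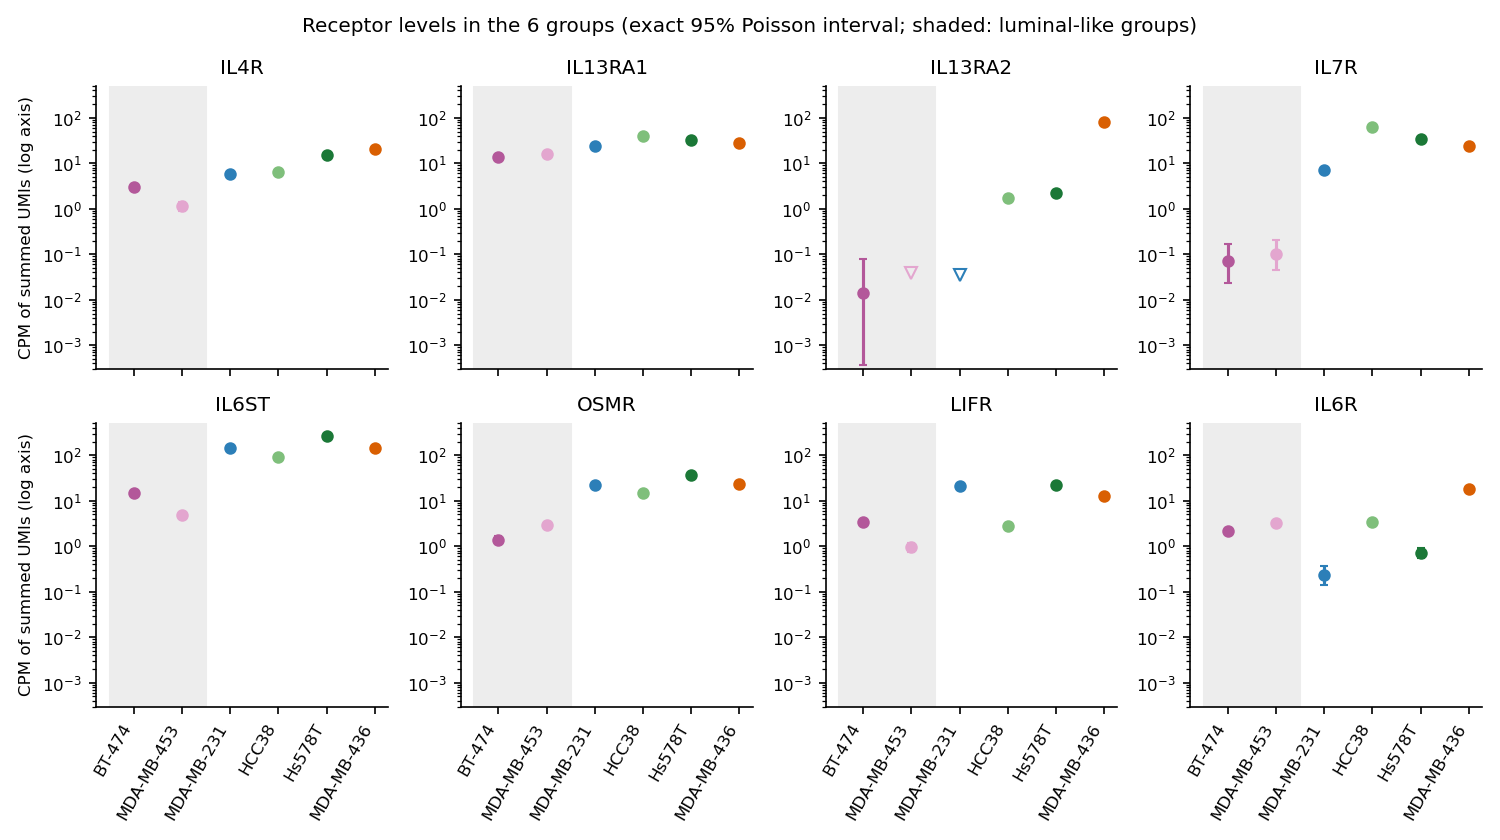
Level of each receptor (CPM, log scale, vertical axis) in the 6 suffix groups, with 95% counting intervals; shading marks the luminal-like groups and open downward triangles mark 0 UMIs, drawn at the limit that 3 counts would give. IL13RA2 stands at 80.7 CPM in the MDA-MB-436-like group and at or below 2.20 CPM elsewhere, while IL13RA1 spans 13.6 to 39.9 CPM.

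Most of the listed partner chains and ligands of these receptors were below 10 CPM in every group, while most of the listed JAK and STAT genes reached it. Of 12 partner receptor chains only IL27RA, the IL-27 receptor chain that pairs with gp130, reached 10 CPM, at 14.1 CPM in the HCC38-like and 13.7 CPM in the MDA-MB-436-like group. IL2RG, the partner of IL7R and IL4R in lymphocytes, was at most at 0.120 CPM. Of the 4 ligands of the IL-4, IL-13, IL-7 and TSLP receptors only TSLP reached 10 CPM, at 20.2 CPM in the Hs578T-like group and at most 0.518 CPM elsewhere, and of 10 gp130 ligands only IL11 (64.0 CPM in the MDA-MB-231-like and 33.7 CPM in the Hs578T-like group) and CLCF1 (10.7 to 16.0 CPM in the 4 groups that are not luminal-like). IL6 and LIF reached at most 8.05 and 8.66 CPM. Of 10 JAK and STAT genes 7 reached 10 CPM. JAK1, the kinase that gp130 and IL4R share, was at 60.5 to 210 CPM, highest in the Hs578T-like group. STAT6 ranged from 1.01 CPM in the BT-474-like group to 22.7 CPM, and STAT3 reached 155 CPM in the HCC38-like group.

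Of 15 genes of feedback and shedding, 13 reached 10 CPM in a group, but SOCS3, the inhibitor induced by gp130 signalling, was at most at 8.54 CPM. SOCS7 reached 68.8 CPM in the BT-474-like group, and ADAM17, a protease that sheds IL6R, 44.1 CPM in the MDA-MB-436-like group. STAT3 response genes were at 10 CPM or more for 17 of 22, with 7 below in both luminal-like groups and 2 above, and STAT6 response genes for 8 of 20, with 3 below and 3 above, beside 19.8% below and 11.2% above over all genes. CCL26 (34.1 CPM) and POSTN (1339 CPM), both known STAT6 targets, were highest in the Hs578T-like group. The antisense genes OSMR-AS1, LIFR-AS1 and IL6R-AS1 were at most at 3.46, 1.29 and 0.556 CPM. The strand setting of the counting is not given in the sources used here, so reads of LIFR and IL6R, which overlap their antisense genes, could not be told apart from theirs if strand was ignored.

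**Figure D2:**
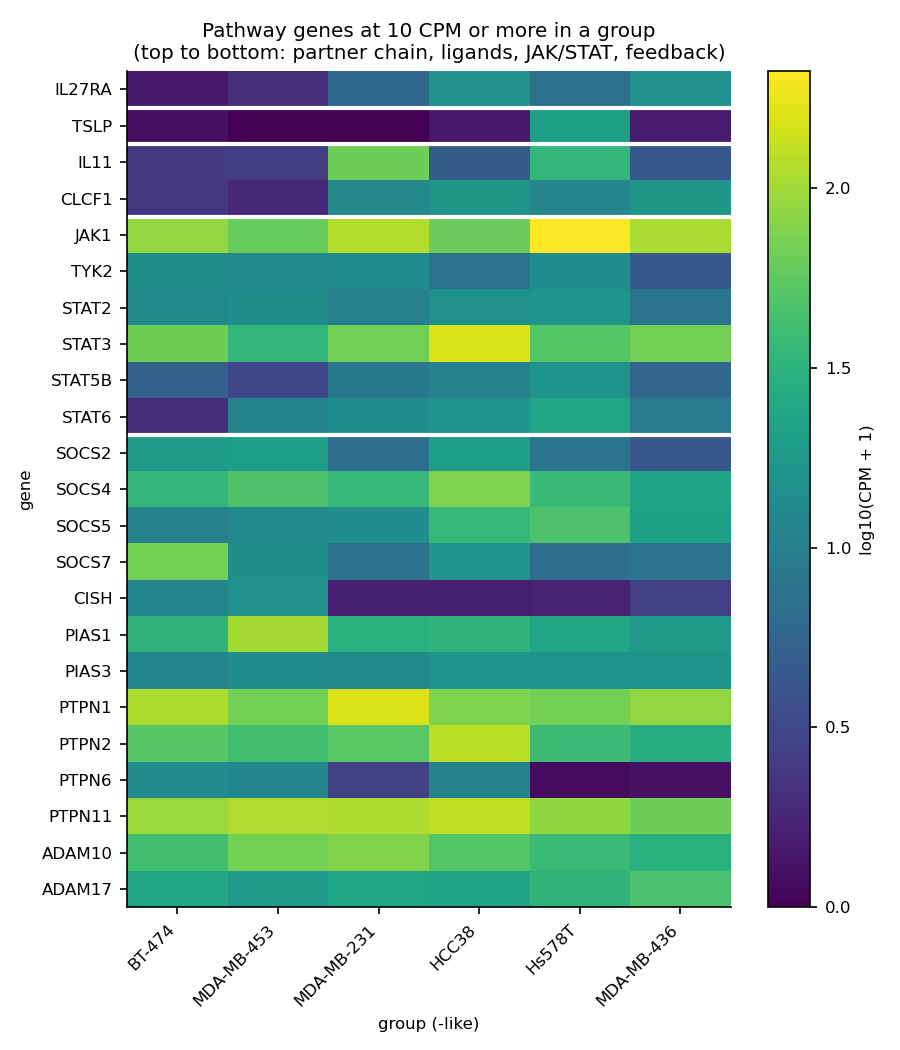
Levels (log10(CPM + 1), colour) of the partner chains, ligands, JAK and STAT genes and feedback genes shown (rows), each at 10 CPM or more in a group, in the 6 suffix groups (columns); white lines part the lists. JAK1 is present in all columns (60.5 to 210 CPM), while TSLP stands out in the Hs578T-like column (20.2 CPM).

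Genes whose levels ran most closely with each receptor over the 6 groups were found by Pearson's r of log2(CPM + 1), which with 6 points is a description. For IL13RA1 these were CEP126 (r = 0.997), EID3 and UGP2. For IL4R they were STEAP3 (0.990), the interferon receptor chain gene IFNAR2 and NEIL2. IL6ST ran with VCL (0.998), which encodes the adhesion protein vinculin, CACNA2D1 and EIF5A2, and OSMR with the death receptor gene TNFRSF10B (0.992), RAB8B and CD59. LIFR ran with CHPF2 (0.984) and C1GALT1, IL6R with EEF2KMT (0.991), EAF1 and AIFM1, and IL7R with SLC16A7 (0.997), CCDC144A and ABHD2. Between 21 genes (IL6R) and 172 genes (IL6ST) had an r above 0.95, so the named genes are the first of many.

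Between cells of 1 group, IL13RA2 and IL7R had the highest variance over mean of the receptors, followed by IL6ST. This measure, given below, rises with the mean level for the same relative spread, so it does not rank receptors of unlike level. For this each cell with at least 10000 UMIs was thinned to 10000, which left 1953 to 3419 cells per group. IL13RA2 had a UMI in 34.1% (32.1 to 36.1) of the 2235 MDA-MB-436-like cells, beside 1.13% in the HCC38-like and 1.02% in the Hs578T-like group, which share its pool, and 0 of the cells of each group of the other pool (limits of 0.0877% to 0.133%). Without thinning the shares were 53.6%, 3.97% and 4.20%. The MDA-MB-436-like group was not the deepest of its pool, with a median of 30199 UMIs against 34483 and 38069.

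The variance of the thinned counts over their mean, which is about 1 for counts that vary only by sampling, was 3.74 for IL13RA2 in the MDA-MB-436-like group, rank 103 of 8166 genes with a median of 1.09. There 3.81% of genes were at 2 or above, IL13RA2 and IL7R (2.12) among them. The 10% of cells with the most IL13RA2 UMIs held 61.6% of them, with up to 20 in a cell. IL7R had a ratio of 3.96 in the HCC38-like group, rank 135 of 8480, where 5.47% of genes were at 2 or above and IL7R was the only receptor among them. There the 10% of cells with the most IL7R UMIs held 72.1% of them.

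IL7R was also uneven in the MDA-MB-231-like group (2.41) and less so in the Hs578T-like group (1.54). It had a UMI in 24.2% of thinned cells in the HCC38-like, 23.0% in the Hs578T-like, 14.8% in the MDA-MB-436-like and 4.09% in the MDA-MB-231-like group, beside 0.133% of BT-474-like cells and 0.0585% of MDA-MB-453-like cells. IL6ST reached ratios of 1.54 and 1.48 in the Hs578T-like and MDA-MB-436-like groups, where 87.7% and 70.6% of cells had a UMI. Its means there, 2.61 and 1.45 UMIs per thinned cell, were the highest of the receptors. Every other receptor was at or below 1.13 in its highest group. IL13RA1 had a UMI in 32.6% of HCC38-like cells and IL4R in 17.2% and IL6R in 16.5% of MDA-MB-436-like cells, shares near what sampling of 1 common level gives. For OSMR and LIFR the highest shares were 30.9% and 19.5%, both in the Hs578T-like group.

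**Figure D3:**
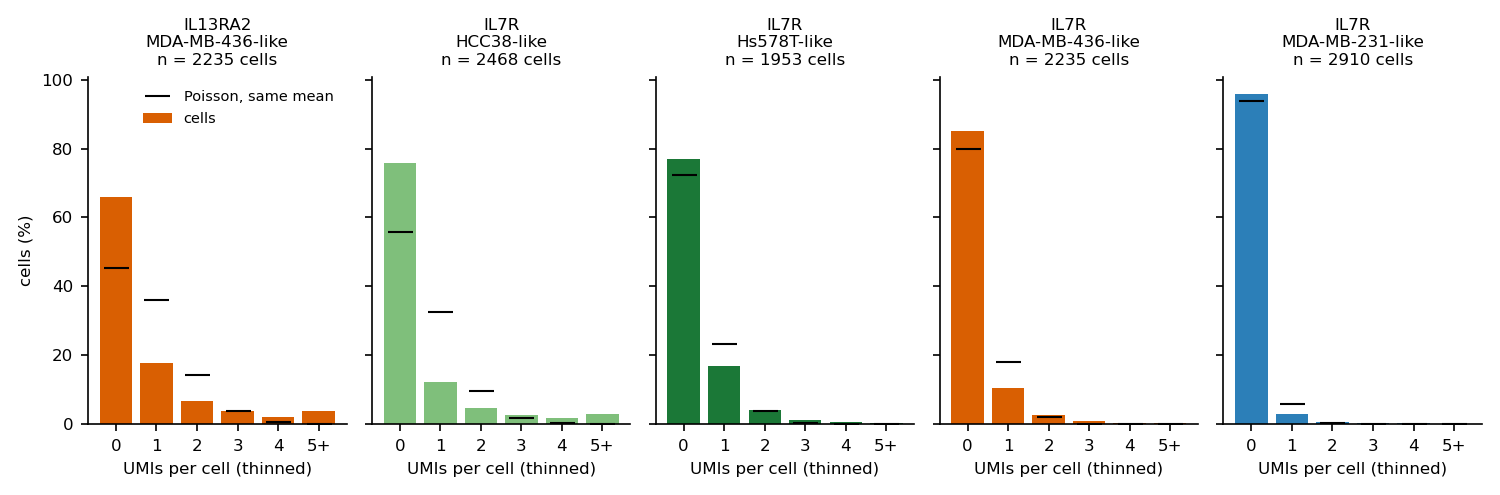
Share of thinned cells (percent, vertical axis) with 0, 1, 2, 3, 4 and 5 or more UMIs (horizontal axis) of IL13RA2 in the MDA-MB-436-like group and of IL7R in 4 groups; bars are measured shares and black dashes the Poisson shares for the same mean. IL13RA2 in the MDA-MB-436-like group (variance over mean 3.74) and IL7R in the HCC38-like group (3.96) have more cells at 0 and at 5 or more than the dashes.

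Pairs of receptors were mostly found together about as often as their separate shares give. In the MDA-MB-436-like group IL13RA1 and IL4R were both detected in 4.74% (3.90 to 5.71) of thinned cells, where the product of their shares is 4.15%. IL13RA1 and IL13RA2 met in 8.59% (7.46 to 9.83), with a product of 8.21%, and IL13RA2 and IL7R in 5.15%, with a product of 5.05%. IL6ST and OSMR were both found in 27.5% of Hs578T-like cells (product 27.1%). No thinned cell in the pool of the luminal-like groups had an IL13RA2 UMI, so pairs with IL13RA2 there could not differ from the product. With these included, over 8 pairs in 6 groups, the interval excluded the product in 3 of 48 cases. IL6ST and OSMR in HCC38-like cells were above it, at 8.83% (7.74 to 10.02) against 7.63%, as were IL13RA1 and IL4R in MDA-MB-453-like cells, at 0.351% (0.181 to 0.612) against 0.163%. IL13RA2 and IL7R in Hs578T-like cells were below it, at 0% (up to 0.189%) against 0.235%. IL6ST and LIFR were both found in 14.2% of MDA-MB-231-like cells (12.9 to 15.5), with a product of 13.1%. IL6ST and IL6R were both found in 11.5% of MDA-MB-436-like cells, with a product of 11.6%.

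The cells with and without IL13RA2 were then compared. In the MDA-MB-436-like group 366 cells had 2 or more IL13RA2 UMIs after thinning, 396 had 1 and 1473 had 0. These classes are ranges of a count, not cell types, and the cells with 1 UMI lie between them. Before thinning, the cells with 2 or more had a median of 32270 UMIs and 7.997% mitochondrial UMIs and those with 0 had 30356 UMIs and 7.25%. The part of these differences in what follows was not tested. Among 8393 genes at 10 CPM or more in either class, 14 (0.167%) were higher and 18 (0.214%) lower by 2-fold or more in the IL13RA2 cells on log2(CPM + 1), so most of the transcriptome differed little, with a median log2 ratio of -0.02.

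SERPINB2, which encodes a protease inhibitor of the plasminogen system and is an IL-13 target in airway epithelium, was highest of these. Its level was 102 CPM in the cells with 2 or more IL13RA2 UMIs, 55.1 CPM in those with 1 and 27.0 CPM in those with 0, a ratio of 3.79 (3.28 to 4.38) between the outer classes. It had a UMI in 45.4% and 14.5% of their cells. The level of SERPINB2 thus followed the count of IL13RA2 across all 3 classes. Between groups it did not, being at 54.3 CPM in the Hs578T-like group, where IL13RA2 was at 2.20 CPM, and 45.4 CPM over all MDA-MB-436-like cells. The aldo-keto reductase gene AKR1C1, a target of the oxidative stress factor NRF2, was at 157, 101 and 67.4 CPM (2.32-fold, 2.09 to 2.58). The metalloproteinase genes MMP1 (69.7, 58.1 and 26.4 CPM) and MMP3 (21.6, 15.4 and 7.67 CPM) and the chemokine gene CXCL3 (24.3, 14.6 and 9.64 CPM) showed the same order. The hedgehog acyltransferase gene HHAT was at 10.9, 6.82 and 3.60 CPM, and the long non-coding RNAs AC003092.1, AC098487.1, LINC01444 and LINC00942 were also among the 10 genes with the largest ratios.

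On the other side stood genes of the interferon response. BST2, which encodes the interferon-inducible protein tetherin, was at 19.1 CPM in the cells with 2 or more IL13RA2 UMIs, 60.9 CPM in those with 1 and 141 CPM in those with 0, a ratio of 0.135 (0.105 to 0.172). BST2 had a UMI in 5.74% and 28.4% of the outer classes. IFIT2 (4.10, 8.08 and 17.0 CPM), IFIT1 (4.37, 4.80 and 12.2 CPM) and the chemokine gene CCL5 (1.91, 4.55 and 10.6 CPM) were also at least 2-fold lower, as were EPB41L3 (3.01, 5.81 and 15.6 CPM), ITGB4 (2.46, 10.1 and 11.9 CPM), MGST2, DPYSL4 and SLC12A7. Few cells of the outer classes had a UMI of IFIT2 (3.01% and 4.41%), IFIT1 (2.73% and 4.21%) or CCL5 (1.37% and 3.87%). Single cells with 0 IL13RA2 UMIs held 23 IFIT2 UMIs and 18 IFIT1 UMIs, so these ratios rest on few cells. DHRS2 had the lowest ratio, with 2.19 CPM against 30.0 CPM, but it was found in 2 and 19 cells, 1 of which held 57.2% of the UMIs of its class, and with thinning to 20000 UMIs its log2 ratio was 0.12. The lower level of BST2 in these cells is thus spread over many cells and that of DHRS2 is not.

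By list, 4 of 14 measured interferon genes were at least 2-fold lower (BST2, IFIT1, IFIT2 and IFIT3) and 0 higher, with a median log2 ratio of -0.55. IFIT3 had a UMI in 5.19% and 8.49% of the outer classes, and 1 cell with 0 IL13RA2 UMIs held 29 of its UMIs. Of 16 measured metallothioneins and NRF2 targets 1 was at least 2-fold higher (AKR1C1), 12 were above 0, and the median was 0.33. Examples are TXNRD1 at 465 against 345 CPM, GCLM at 160 against 108 CPM and the cystine transporter gene SLC7A11 at 95.4 against 57.9 CPM. Of 15 NF-kB and cytokine genes 1 was higher (CXCL3), with a median of -0.28, although IL1B was at 325 against 202 CPM. Of 3 measured STAT6 response genes SERPINB2 was higher, while POSTN (18.0 against 34.4 CPM) and TGM2 (5.46 against 11.5 CPM) had lower values. POSTN had a UMI in 15.8% and 16.2% of the cells of these classes, and 1 cell with 0 IL13RA2 UMIs held 29 POSTN UMIs. Over all MDA-MB-436-like cells POSTN was at 33.0 CPM beside 1339 CPM in the Hs578T-like group. The Hs578T marker THY1 was at 19.7 beside 802 CPM, and the part of Hs578T-like transcripts in POSTN was not tested. Of 15 STAT3 response genes 0 passed 2-fold in either direction (median -0.05), TIMP1 being at 1555 against 945 CPM. The G1/S and G2/M lists had medians of -0.15 and -0.12, with 0 genes past 2-fold.

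None of the 7 other receptors measured there was 2-fold apart between the classes, with a median log2 ratio of -0.11. IL6ST was at 181 against 135 CPM (ratio 1.34, 1.22 to 1.46) and IL13RA1 at 30.3 against 28.2 CPM. IL4R was at 16.9 against 20.6 CPM, IL7R at 21.3 against 22.2 CPM and OSMR at 19.7 against 25.1 CPM. IL13RA2 therefore varied between these cells without a like change of the chains that signal for IL-13.

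Among cells with no BST2 UMI the contrast of the interferon list was small and the rest was of similar size: 345 cells against 1055 gave 11 genes higher and 16 lower, with 1 of 13 interferon genes lower and a list median of -0.11. BST2 is itself in the interferon list, and these cells were selected for 0 of its UMIs. The smaller contrast of the list is therefore partly fixed by that selection. That comparison was added after the first was seen. Over single cells, the genes at 20 CPM or more with the highest Pearson r with IL13RA2 were SERPINB2 (0.284), UCHL1 (0.243), TIMP1 (0.219), AKR1C1 (0.203) and TXN (0.199), and the lowest were RPS20 (-0.206), BST2 (-0.199), TUBB3, SNHG6 and HMGB1. These correlations are weak and describe the cells of 1 library at 1 depth.

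**Figure D4:**
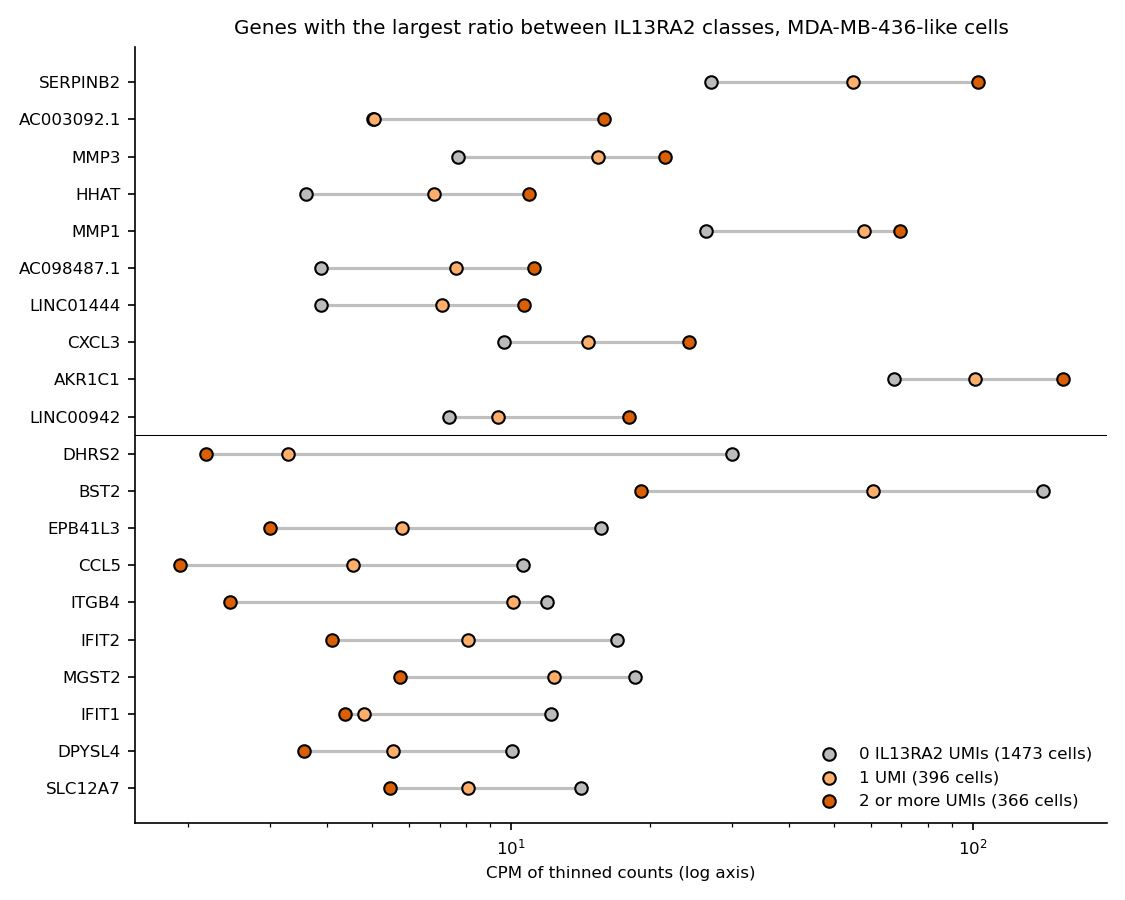
Levels (CPM of thinned counts, log scale, horizontal axis) of the 10 genes with the largest ratio in each direction (rows) in MDA-MB-436-like cells with 0, 1 and 2 or more IL13RA2 UMIs (points, by colour). SERPINB2 goes from 27.0 to 102 CPM and BST2 from 141 to 19.1 CPM, with the cells of 1 UMI between.

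The same comparison for IL7R in the HCC38-like group set 297 cells with 2 or more UMIs against 1871 with 0, beside 300 with 1. It gave 70 genes (0.793% of 8823) that were higher and 86 (0.975%) that were lower by 2-fold or more. The IL7R cells had a median of 41113 UMIs before thinning against 33942, and 5.49% against 5.97% mitochondrial UMIs, and the part of depth was not tested. BIRC3, an inhibitor of apoptosis and NF-kB target, was at 129 CPM, 74.7 CPM in the cells with 1 UMI and 27.0 CPM in those with 0, a ratio of 4.78 (4.18 to 5.47), and had a UMI in 41.8% and 14.2% of the outer classes. The acute-phase gene SAA1 was at 27.9, 36.3 and 3.79 CPM, the long non-coding RNA SFTA1P at 22.6 against 4.38 CPM in the outer classes, and the interferon-induced antiviral gene RSAD2 at 24.6, 7.33 and 4.92 CPM. CXCL10 had the largest ratio (16.2 against 0.641 CPM), but all 48 of its UMIs in the IL7R cells came from 1 cell, and after doublet filtering its log2 ratio was -0.59. AKR1C1, which was higher in the IL13RA2 cells, was lower in the IL7R cells, at 64.3, 243 and 447 CPM, as were AKR1C2 (3.37, 28.0 and 85.0 CPM), the metalloreductase gene STEAP4 (1.01, 4.67 and 17.1 CPM), the carbonic anhydrase gene CA2 (62.0, 146 and 300.3 CPM) and AC106881.1.

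By list, 1 of 7 measured NF-kB genes was at least 2-fold higher (BIRC3), and all 7 were above 0 with a median of 0.68. Of 19 NRF2 targets and metallothioneins 3 were lower (AKR1C1, AKR1C2 and AKR1C3). Of 20 interferon genes 2 were higher (RSAD2 and IFIT3, the latter at 134 against 48.7 CPM), with a median of 0.37. The AP-1 list divided, with FOSL1 higher (173 against 79.7 CPM) and FOS (51.9 against 157 CPM) and DUSP4 lower. Of 16 STAT3 response genes 2 were lower, FOS and SERPINA3 (32.3 against 96.1 CPM). None of the 20 G2/M genes passed 2-fold, though all 20 were above 0 with a median of 0.39. The 3 other receptors measured, IL13RA1, OSMR and IL6ST, did not pass 2-fold, IL6ST being at 113 against 84.8 CPM, and IL27RA was at 24.9 against 12.1 CPM. Over single cells IL7R had its highest r with CAV1 (0.339) and BIRC3 (0.285), followed by F3, CCN1 and COTL1, and its lowest with the luminal keratin gene KRT19 (-0.313) and the matrix protein gene MGP (-0.255).

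In the 3 other groups with IL7R, cells with 1 or more UMIs were set against cells with 0, a comparison added after the HCC38-like result was seen. In the MDA-MB-231-like group 119 cells had IL7R and 2791 did not, and 169 genes (1.98% of 8550) were at least 2-fold higher and 39 (0.456%) lower. The higher genes were led by the interferon response. RSAD2 was at 65.5 CPM in the IL7R cells and 1.00 CPM in the others (ratio 65.3, 41.9 to 105), with a UMI in 17.6% and 0.502% of them. The antiviral genes ISG20 (230.3 against 7.70 CPM), OASL (161 against 5.12 CPM), IFIT2 (331 against 18.0 CPM) and IFIT3 (784 against 53.7 CPM) followed, and the ubiquitin-like gene ISG15 was at 3605 against 321 CPM (11.2-fold). Of 21 measured interferon genes 12 were higher, 0 lower and all 21 above 0, with a median log2 ratio of 1.04. The genes with small ratios included BST2 (342 against 222 CPM) and PSMB8 (120.2 against 86.5 CPM), so the list did not move as a whole by the same factor.

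Seen from the other gene, IL7R was detected in 21 of the 35 MDA-MB-231-like cells with an RSAD2 UMI (60%, 42.1 to 76.1) and in 3.41% of the rest. Depth differed little, with medians of 26860 UMIs in the IL7R cells and 26375 in the others, and mitochondrial shares were 5.96% and 6.32%. Of 7 measured NF-kB genes 2 were higher (IL6 at 24.4 against 7.81 CPM and NFKBIA at 99.2 against 42.6 CPM), with a median of 0.88, and IL27RA was at 16.8 against 4.55 CPM. All 20 G2/M genes were below 0, with a median of -0.74 and 4 lower by 2-fold or more. NEK2, which is not in that list, was at 18.5 against 52.0 CPM. It was 1 of the 5 genes with the lowest ratios, with PIF1, KLHL8, HEATR3 and ARHGAP19. The receptors IL6ST (142 CPM in both classes), OSMR (25.2 against 21.7 CPM), IL13RA1 (21.8 against 25.4 CPM) and LIFR (16.8 against 21.3 CPM) did not pass 2-fold. Without doublets and mixed cells 12 of 19 interferon genes were higher.

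In the MDA-MB-436-like group, where 331 cells had IL7R and 1904 did not, 13 genes (0.154% of 8428) were at least 2-fold higher and 1 (0.0119%) lower. IFIT3 was at 48.3 against 16.3 CPM, IFIT2 at 30.2 against 10.3 CPM and CCL5 at 27.2 against 4.78 CPM (with a UMI in 8.16% and 2.52% of cells). Of 14 measured interferon genes 3 were higher (IFIT1, IFIT2 and IFIT3), all 14 were above 0, and the median was 0.38. BST2, which separated the IL13RA2 classes of the same cells, was at 110.0 CPM with IL7R and 107 CPM without. The ratios of DHRS2 and Z97192.4 rested mostly on 1 cell each. In the Hs578T-like group, with 449 cells against 1504, only NECTIN3-AS1, CPA3 and SFTA1P (24.5 against 10.5 CPM) were at least 2-fold higher (0.0356% of 8435 genes) and 0% lower, and the 10 measured interferon genes had a median of -0.00 with 0 past 2-fold. In the HCC38-like group IL7R was detected in 28 of 60 cells with an RSAD2 UMI (46.7%) and in 23.6% of the rest. In the MDA-MB-436-like group it was found in 7 of 23 such cells (30.4%, 13.2 to 52.9), an interval that holds the 14.6% of the rest. The interferon list thus had a median above 0 beside IL7R in 3 of the 4 groups. For 1 or more UMIs against 0 these were 1.04 (MDA-MB-231-like), 0.38 (MDA-MB-436-like) and 0.32 (HCC38-like). In the HCC38-like group this was not particular to interferon genes, of which 14 of 19 were above 0. The NF-kB and G2/M lists had medians of 0.44 and 0.31 there. Differences between the groups were not tested.

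**Figure D5:**
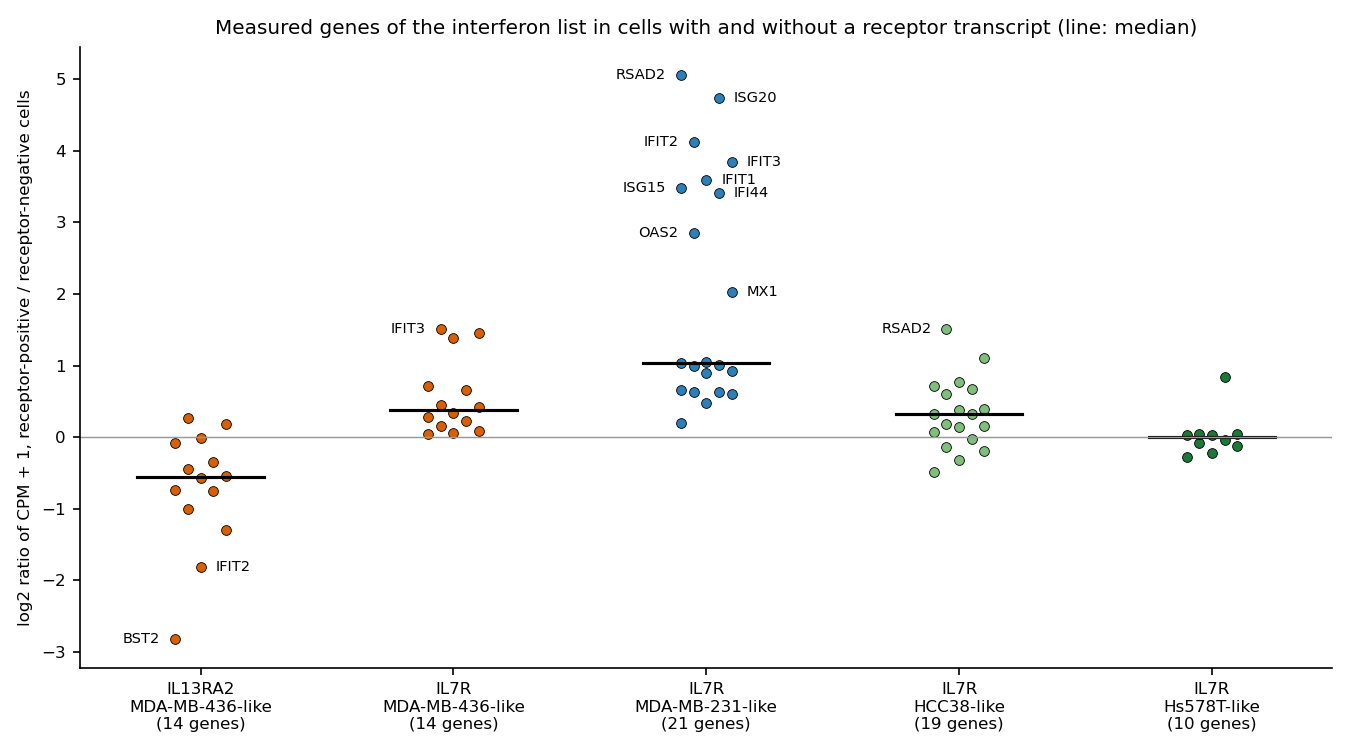
Log2 ratio of CPM + 1 (vertical axis) of each measured interferon response gene (points) between cells with and without a receptor, in MDA-MB-436-like cells by IL13RA2 (2 or more UMIs against 0) and in 4 groups by IL7R (1 or more against 0), with a black line at each median. The points lie mostly below 0 for IL13RA2 (median -0.55) and all above 0 for IL7R in the MDA-MB-231-like group (median 1.04).

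The other receptors were compared in the same way where their counts allowed it. For IL6ST in the Hs578T-like group 1307 cells had 2 or more UMIs and 241 had 0, and 8 genes (0.0947%) were higher and 0% lower, among them SBNO2 (12.2 against 4.56 CPM), AKR1C2 (11.2 against 4.15 CPM), HIVEP3, APOBEC3G and ZNF512. TSLP was at 23.0 against 10.4 CPM there. For OSMR in the same group 121 cells were set against 1349, and 23 genes (0.269%) were higher and 27 (0.315%) lower. UNC5B (20.7 against 6.75 CPM) and CST7 were among the higher. For IL13RA1 in the HCC38-like group, with 174 cells against 1663, 10 genes (0.114%) were higher and 8 (0.0908%) lower. They included CFI at 21.3 against 9.56 CPM and LAMA3 at 10.9 against 24.1 CPM. IL4R, LIFR and IL6R had 48, 47 and 33 cells with 2 or more UMIs, too few to compare.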

How the data were processed

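The authors deposited raw UMI counts for 17605 barcodes, 36601 genes and 12 oligos in a single matrix that, per the file headers, came from Cell Ranger 6.1.2. The submitters' processing notes name the build GRCh38 (hg38). How cells were called, demultiplexed and aggregated is not given in the sources used here. The receptors, gene lists and line markers were chosen with earlier results of these data known.

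Barcodes with at most 20% mitochondrial UMIs were kept, with no other filter. Counts were summed per barcode suffix and expressed as CPM. Ratios used log2(CPM + 1), and a gene was measured at 10 CPM or more in a group or class. For cell-level values, cells were thinned without replacement to 10000 UMIs (seed 1), and classes with at least 100 cells were compared. A share or level at 0 is given the limit of 3 counts. Intervals are at 95%. Steps were tested on simulated data. Doublet filtering, used as an alternative, removed 455 of 15538 cells with at least 1000 UMIs and 500 genes: 251 (1.62%) called by Scrublet (expected rate 0.06) and 436 with transcripts of another line of the pool, in part the same cells.

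Named genes were all 8 receptors, pathway genes at 10 CPM or more in a group, the 10 genes most like IL13RA2 by difference to the next group (20 CPM or more) and the 3 most like each other receptor by r, and the 10 (IL13RA2) or 5 (others) genes with the largest ratios each way between cells. Some genes that meet these rules are not reported here. List members named beside a count were chosen after their values were seen. Alternatives changed the mitochondrial limit, cell filter, weighting of cells, TMM scaling (edgeR), pseudocount, class limits, thinning depth and seed. Those for IL7R, cells with no BST2 UMI, and IL7R classes outside the HCC38-like group were added after the data were seen. Versions used: scanpy 1.11.5, pandas 2.3.3, scipy 1.17.1, numpy 2.4.6 and matplotlib 3.10.9 under Python 3.11.15, and edgeR 4.0.16 under R 4.3.3. Promoter windows came from RefSeq (GRCh38.p14).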

Additional observations from a re-analysis of the deposited data

How the results depend on the processing

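Over 94 results and 591 alternative values, 445 stayed within the margin for their kind, 144 moved further and 2 reversed. The margin was counting error for levels, ratios and shares, and 1.5 times for counts. List medians and variance over mean had fixed margins of their own. All 8 receptors kept their highest group under the 5 alternatives for levels, and the 29 levels above 5 CPM stayed at 0.860 to 1.11 times their value. IL13RA2 in the MDA-MB-436-like group was at 77.9 CPM with no mitochondrial limit and 76.9 CPM with TMM scaling. Its log2 ratio to the next group, 4.67, was 5.48 after doublet and mixed-cell filtering, a value that the filter itself may partly fix. It was 5.13 with a pseudocount of 0.1 CPM and 3.57 with 5 CPM, where 1 receptor in place of 2 passed 4-fold. Variance over mean moved with depth, as its construction implies: IL13RA2 was at 2.40 for 5000 UMIs and 11.7 without thinning, IL7R at 2.53 and 14.3. With at most 10% mitochondrial UMIs IL13RA2 was at 4.39.

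Counts of genes past 2-fold depended on the setting, and smaller classes or shallower thinning gave more genes. For IL13RA2 (14 higher, 18 lower) they were 3 and 8 for 1 or more UMIs against 0, 36 lower for 3 or more, 38 and 121 for 5000 UMIs, 29 lower with at most 10% mitochondrial UMIs, and 7 and 8 with a pseudocount of 5 CPM. For IL7R in the HCC38-like group (70 and 86) they were 30 and 37 for 1 or more, 194 and 265 for 5000 UMIs, 53 lower for 20000 UMIs, and 42 and 44 with a pseudocount of 5 CPM. DHRS2 turned to 0.12 at 20000 UMIs and CXCL10 to -0.59 after doublet filtering, both resting largely on 1 cell. Of the 20 genes named for IL13RA2, 11 to 19 stayed past 2-fold, and of 10 for IL7R, 9 or 10. The interferon median stayed below 0 for IL13RA2 (-0.55 to -0.11) and above 0 for IL7R in the HCC38-like group (0.22 to 0.49). No paired analysis was possible because each line had 1 culture and nothing was replicated.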

Other observations

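Each level rests on 1 culture, so the line and its culture cannot be told apart. The MDA-MB-231-like group shared the pool of the luminal-like groups and was above both for IL6ST, OSMR and IL7R. The line names rest on markers, with the MDA-MB-436-like name on the fewest. In the 529 barcodes above 20% mitochondrial UMIs of that group, which were left out elsewhere, IL13RA2 was at 15.7 CPM, with no interval computed. Of the other receptors, IL4R, LIFR and IL6R had higher levels there than in the kept barcodes, and IL13RA1, IL6ST, OSMR and IL7R lower ones. No interval was computed for these levels either, so some of these directions may lie within counting error. For example, LIFR was at 15.7 against 12.4 CPM and OSMR at 21.3 against 23.6 CPM.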
